A study of Mus musculus with 10 samples.

Results

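The cytosolic ribosomal protein genes were described in mpkCCD cells, an immortalized mouse line with features of collecting duct principal cells. The members were the genes whose symbol is Rpl or Rps followed by a number and at most 1 of the letters a, x or l, together with Rplp0, Rplp1, Rplp2 and Rpsa, with a mean of at least 1 TPM (a transcript abundance scaled by length and by the sample's total) over the 10 samples. The rule took 77 genes of 55414 in the table, and 83 symbols matched before the minimum was applied. Of the 77 genes, 43 encode proteins of the large subunit, 31 proteins of the small subunit and 3 the P-stalk, the flexible arm of the large subunit. The minimum divided the matching symbols widely, since the lowest member, Rpl27a, had a mean of 49.0 TPM and the highest gene left out, Rpl6l, 0.668 TPM.

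The study deleted Camk2d, which encodes the delta subunit of a calcium/calmodulin-dependent kinase, by CRISPR-Cas9 and measured the transcriptome of dDAVP-treated cells. All 10 samples were of C57BL/6 background and were grown on filters with the vasopressin analog dDAVP for 7 days, so that no sample without dDAVP was compared. The 5 Camk2d-intact samples, labelled wild type, came from the parental line (1 sample) and from 2 clones, sampled 2 times each, that went through transfection and kept Camk2d. For the deletion, 5 Camk2d KO clones were grown from single cells and sampled 1 time each. The guide RNA cut in exon 8 for KO 1 and KO 2 and in exon 9 for the other KO clones. No source used here says whether the 2 samples of an intact clone were separate cultures, so p-values measure the spread between these samples, which may in part be technical.

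Each cytosolic ribosome carries 1 copy of nearly every one of these proteins, bound to ribosomal RNA, and the P-stalk recruits the elongation factors during translation. Their transcripts are among the most abundant of a growing cell. Most of these messenger RNAs begin with a C followed by a run of pyrimidines, the terminal oligopyrimidine motif, through which their translation responds to the kinase complex mTORC1. A few members have paralogs that are used mainly in testis or muscle.

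The start of the transcript is shown for 5 members to display this motif, because it is the sequence the family is known for and because these 5 include members that varied much and members that varied little between the cell lines. RefSeq promoter sequences (build GRCm38.p6) were found for 57 of the 77 members. A C followed by at least 4 letters that are each C or T stood exactly at an annotated start of 13 of the 57, which is 22.8%, and at a start of 3.01% of the 27025 genes with an entry. The search read only the strand of transcription. Rps27, a zinc-binding protein of the small subunit, had the largest range over cell lines, and its window is chr3:90213629-90213678 on the minus strand. Rpl38, a small protein of the large subunit, lies on the plus strand with the window chr11:114668550-114668599. Rps21 of the small subunit, at chr2:180257349-180257398 on the plus strand, was 1 of 5 members lower in every KO clone than in every intact sample. Rpl14 of the large subunit, at chr9:120571487-120571536 on the plus strand, was high in KO 2. Rps6, the small-subunit protein that S6 kinase phosphorylates, lies at chr4:86857348-86857397 on the minus strand and varied little. Each line runs from 30 bases before the annotated start through the first 20 transcribed bases, and the capitals mark the pyrimidine run that begins at the start.
Rps27: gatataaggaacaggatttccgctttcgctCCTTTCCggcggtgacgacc
Rpl38: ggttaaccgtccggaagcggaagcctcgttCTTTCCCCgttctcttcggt
Rps21: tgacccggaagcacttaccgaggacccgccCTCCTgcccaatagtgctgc
Rpl14: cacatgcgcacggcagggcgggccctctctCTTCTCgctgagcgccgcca
Rps6: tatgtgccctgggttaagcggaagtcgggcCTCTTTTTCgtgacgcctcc

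The pyrimidine runs were 7 letters long in Rps27, 8 in Rpl38, 5 in Rps21, 6 in Rpl14 and 9 in Rps6. The median log2 difference from the intact mean was -0.38 in KO 1 for the 13 members with the run and -0.28 for the other members with an entry. In KO 2 the same medians were -0.28 and -0.26. These are descriptions without a test, and a start annotated a base away from the true start would hide the run.

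All 77 members were above 0 in every sample, and all were among the 20000 genes tested. Levels are given in TPM, which divide by transcript length and can be set beside each other between genes. In intact cells the median member stood at 314 TPM, with quartiles of 191.6 and 573.8 TPM. The median of the large-subunit genes was 303 TPM and that of the small-subunit genes 314 TPM, so that neither subunit was represented by more abundant transcripts than the other at the median. None of the 10 genes with the highest mean TPM was a member, and 8 members were among the highest 100. Proteins that enter the ribosome in equal number were encoded by transcripts of very different level, and Rpl32, for example, stood 29.5-fold above Rpl27a in intact cells.

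Among the highest levels was that of Rpl32 of the large subunit, at 1447 ± 83.8 TPM (SD, n = 5) in intact samples. Rps27 (ENSMUSG00000090733, chromosome 3) stood at 1287 ± 36.5 TPM (SD, n = 5), and Rpl13 and Rps15 at 1283 ± 75.2 and 1243 ± 43.5 TPM (SD, n = 5). The means of Rps27, Rpl13 and Rps15 lay closer together than the spread of Rpl13 over the intact samples, so their order is not resolved. At the low end, Rpl27a of the large subunit was 49.1 ± 2.21 TPM (SD, n = 5) and Rpl39, a small protein at the exit of the peptide tunnel, 67.1 ± 8.79 TPM (SD, n = 5). Rpl11 and Rpl5, which together bind the smallest ribosomal RNA of the large subunit and can also bind Mdm2, were 91.2 ± 7.15 and 97.0 ± 7.89 TPM (SD, n = 5), within each other's spread. Rpl17 was 116.5 ± 9.24 TPM (SD, n = 5). In the P-stalk, Rplp0 was 672 ± 63.6, Rplp1 660 ± 26.7 and Rplp2 330 ± 29.0 TPM (SD, n = 5), so that the transcripts of the P1 and P2 proteins, which form dimers, were not at equal levels.

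**Figure D1:**
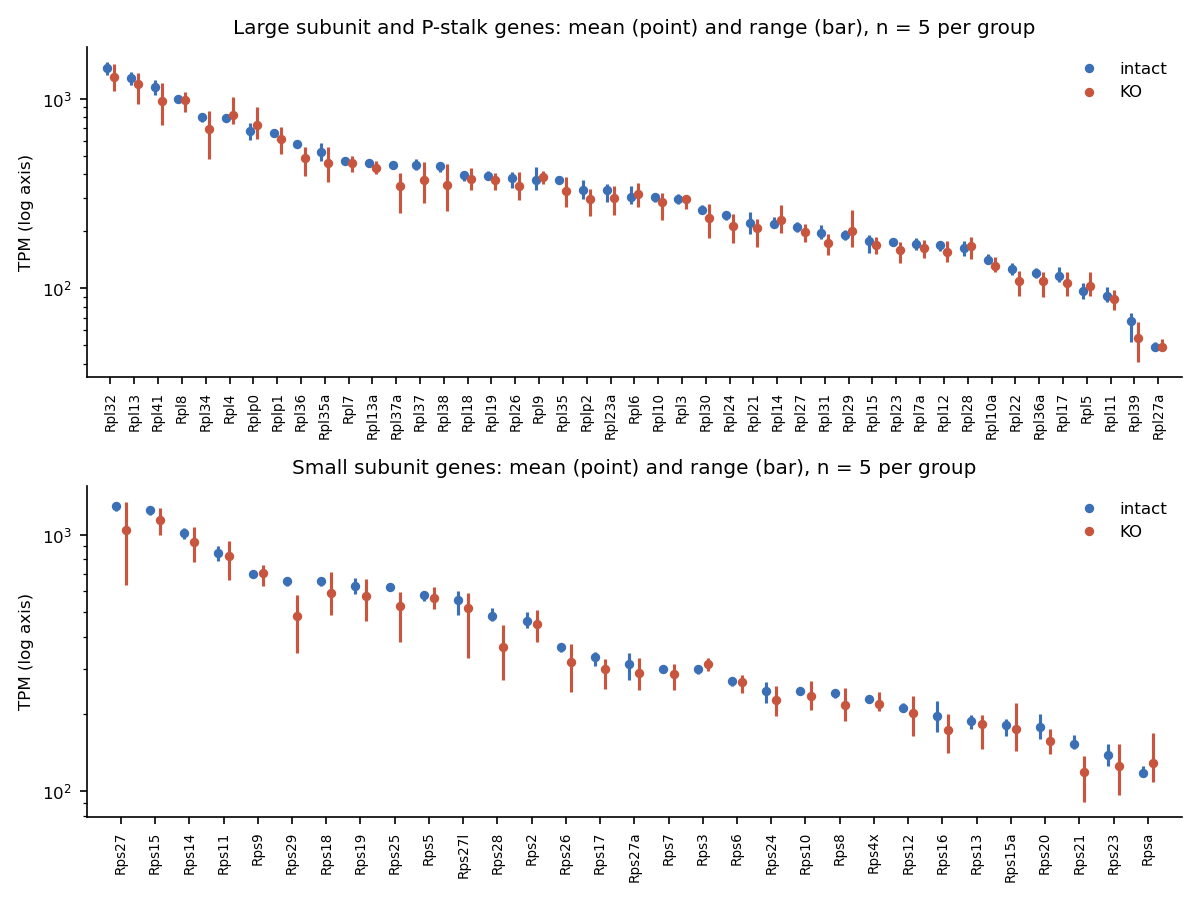
TPM (log axis) of the members, 1 gene left out, with the mean as a point and the range as a bar, for the 5 intact samples (blue) and the 5 Camk2d KO samples (red). The upper panel holds the large-subunit and P-stalk genes, from Rpl32 at 1447 TPM to Rpl27a at 49.1 TPM in intact cells, and the lower panel the small-subunit genes, from Rps27 at 1287 TPM to Rpsa at 118 TPM. The red ranges are wider than the blue ranges for most members, where the red samples come from 5 clones and the blue from 3 cell lines.

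Reads of many members cannot be assigned to 1 locus with certainty, because processed pseudogenes copy their sequence. The share of 50-base windows of a member's transcripts that occurred in no other annotated gene was 79.1% at the median and ran from 18.9% to 100%. It was under 50% for 5 members, namely Rpl36 (18.9%), Rplp1 (40.0%), Rpl19 (42.6%), Rpl24 (48.2%) and Rpl23a (49.9%), whose levels are therefore less certain. Annotated ribosomal protein pseudogenes summed to 0.0559% to 0.0600% of TPM in intact cells, and in the KO clones to 0.0497% to 0.0635%. Over the 77 members, level and transcript length had a Spearman's rho of -0.317, which describes genes of the same libraries and is no test.

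The summed TPM of the members gives the share of the transcriptome devoted to ribosomal proteins. In intact cells it was 3.28% in the parental line, 3.46% and 3.36% in intact clone 1, and 3.43% and 3.60% in intact clone 2. In KO clones it was 2.68% in KO 1, 2.82% in KO 2, 3.44% in KO 3, 3.19% in KO 4 and 3.57% in KO 5. KO 1, KO 2 and KO 4 were below the lowest intact sample, whereas KO 3 and KO 5 lay within the intact range, so the groups overlapped. The means were 3.43% ± 0.121 (SD, n = 5) in intact samples and 3.14% ± 0.383 (SD, n = 5) in KO samples. The difference of -0.287 percentage points did not exceed the spread between samples (two-sided exact permutation test over 252 arrangements, p = 0.175). With KO 5 left out the difference was -0.395 percentage points (exact permutation p = 0.0397), without KO 1 it was -0.173 (exact permutation p = 0.341), and without both KO 1 and KO 2 it was -0.0281 (exact permutation p = 0.804). These arrangements treat the 5 intact samples as separate units, though they come from 3 cell lines. Over 5 alternatives, among them 1 value per line, the difference was -0.350 to -0.0281 percentage points (exact permutation p = 0.135 to 0.804). In bulk RNA, fewer cells of a type and less RNA per cell cannot be told apart, and a share of TPM does not give the amount of RNA per cell.

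**Figure D2:**
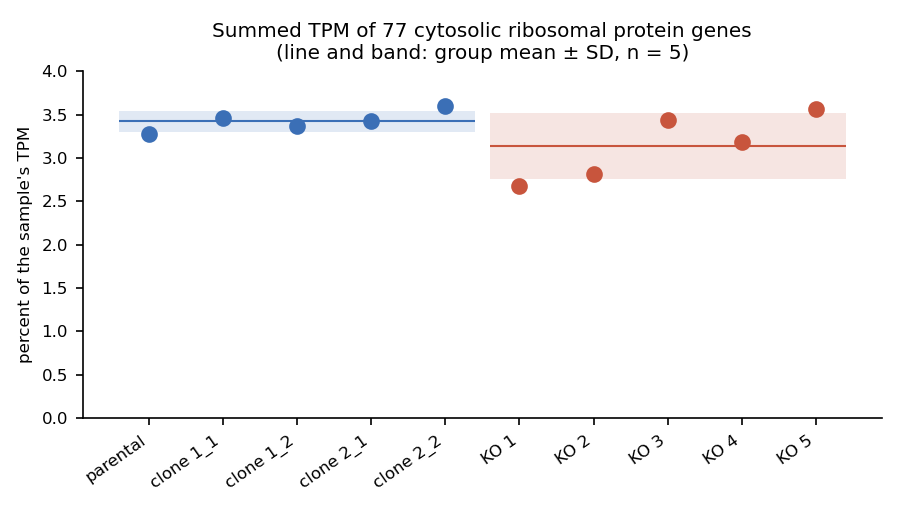
Summed TPM of the 77 members as a percent of each sample's TPM, with 1 point per sample and the group mean and SD as a line and band (n = 5 per group). KO 1 and KO 2, at 2.68% and 2.82%, are the lowest samples, and KO 3 and KO 5 lie among the intact samples, which run from 3.28% to 3.60%.

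Large-subunit and P-stalk genes together had 1.46 ± 0.0194 times the summed TPM of small-subunit genes in intact samples (SD, n = 5) and 1.49 ± 0.0341 times in KO samples (SD, n = 5). The ratio was 1.498 in KO 1 and 1.54 in KO 2, which were the highest of the 10 samples. The intact samples ran from 1.43 to 1.47.

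The 5 KO clones differed from each other more than the 5 intact samples did. These are unlike units, since the intact samples come from 3 cell lines and 2 of these lines were sampled 2 times. Relative to the mean of the intact samples on the log2(TPM + 1) scale, the median member was at -0.33 in KO 1, -0.26 in KO 2, 0.01 in KO 3, -0.09 in KO 4 and 0.07 in KO 5. The 5 intact samples had medians between -0.07 and 0.07. The median of all genes tested stayed between -0.02 and 0.03 in the 10 samples. The 78 mitochondrial ribosomal protein genes, which serve the separate ribosome of the mitochondrion, had medians of -0.02 in KO 1 and -0.01 in KO 2. In these 2 clones the cytosolic set was thus low while the median of the mitochondrial set lay within the range of the intact samples, which was -0.03 to 0.03. In KO 4 both medians were below those of all intact samples, with -0.07 for the mitochondrial and -0.09 for the cytosolic set.

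Counting members outside the range of the 5 intact samples gives the same picture gene by gene. In KO 1, 66 of 77 members were below the lowest intact sample, where 18.7% of all genes tested were below, and 0 were above the highest, where 26.0% of all genes were above. In KO 2, 62 members were below (18.9% of all genes) and 7 above (33.4%). In KO 3, 9 members were below (12.5%) and 12 above (17.8%), which are shares near those of all genes. In KO 4, 35 members were below (13.2%) and 1 above (24.8%). In KO 5, 7 were below (13.9%) and 26 above (16.5%). With intact clone 2 sample 2 left out of the reference, 35 members were outside the range in KO 3 and 50 in KO 5. In KO 4 the count reached 50 with 1 intact sample left out. A range over fewer samples can only be narrower, for any gene, and the share over all genes was not computed for it. The rise is therefore not a result about the members. Each clone is 1 sample, and no test of a single clone was made.

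**Figure D3:**
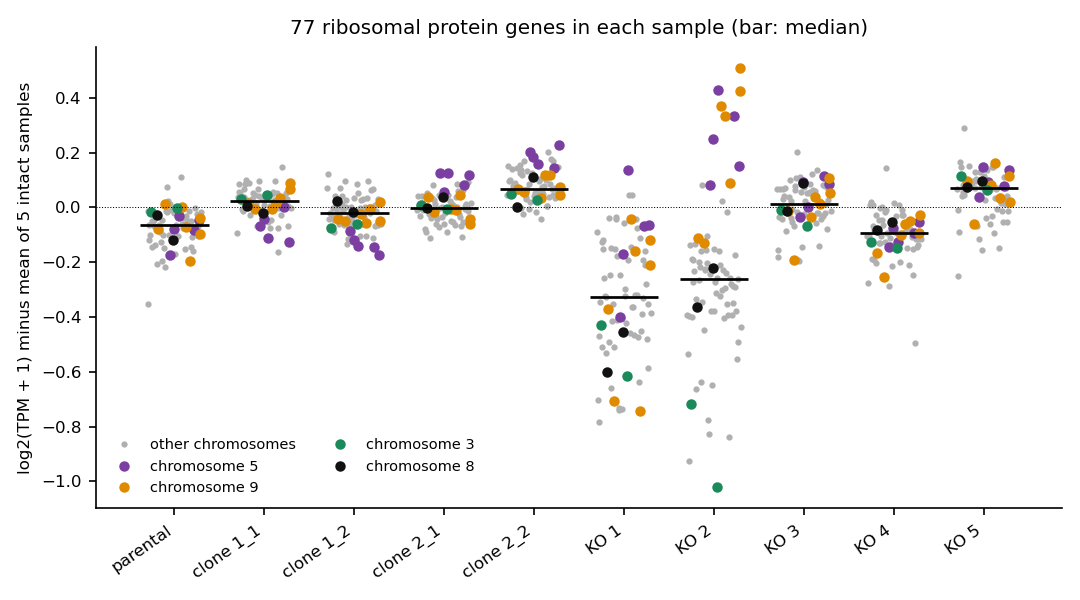
Difference of each member from the mean of the 5 intact samples, in log2(TPM + 1), with 1 point per member, 1 column per sample and the median as a bar. Points of members on chromosomes 3, 5, 8 and 9 are coloured. In KO 1 and KO 2 the medians are -0.33 and -0.26, and in KO 2 most members of chromosomes 5 and 9 stand above the others.

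The comparison of KO with intact samples asks whether deletion of Camk2d changed the members' transcripts. Camk2d itself fell from 132 ± 6.97 to 24.7 ± 3.65 TPM (SD, n = 5), with a log2 difference of -2.39 (limma with Benjamini-Hochberg adjustment, adjusted p = 1.2e-06). No member passed the threshold of 0.05 in limma, as 0 of 77 had an adjusted p under it, where 0.00500% of all genes tested did and Camk2d was the only one. At an unadjusted limma p under 0.05 there were 10 members, all lower in KO clones, where 6.99% of all genes had such a p. Differences pointed downward for 66 members and upward for 11, with a median of -0.12 beside 0.02 for all genes tested. The 10 members were Rps29, Rps28, Rps21, Rpl37a, Rpl36, Rps25, Rpl22, Rpl38, Rpl24 and Rpl37. The 10 became 27 without KO 5, 20 without KO 3, 4 without intact clone 2 sample 2, 5 without KO 1, 6 without KO 2, intact clone 1 sample 1 or intact clone 2 sample 1, and 7 without KO 1 and KO 2, while the share of all genes stayed between 5.47% and 8.48%. The 5 intact samples come from 3 cell lines, and with 1 value per line 4 members had such a p (3.81% of all genes), and with the line as a random effect 6 (3.75%). The median was -0.07 without KO 1 and -0.0072 without KO 1 and KO 2.

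In 5 members the KO and intact samples did not overlap, namely Rps29, Rps28, Rpl37a, Rps21 and Rps25, where 1.64% of all genes tested were without overlap. Rps29 (ENSMUSG00000034892, chromosome 12), a zinc-binding protein of the small subunit, was 629, 682, 637, 656 and 680.3 TPM in the intact samples, in the order parental, clone 1 and clone 2. It was 381 TPM in KO 1, 345 in KO 2, 579.6 in KO 3, 542 in KO 4 and 551 in KO 5. All KO clones were below all intact samples, and KO 1 and KO 2 stood below the other KO clones. The log2 difference of Rps29 was -0.48 (standard error 0.14, limma adjusted p = 0.549), the lowest of the members.

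Rps28 of the small subunit was 459 to 516 TPM in intact samples, with a median of 479.8, and 271 to 445 TPM in KO clones, with a log2 difference of -0.43 (limma adjusted p = 0.568). Rpl37a, a zinc-binding protein of the large subunit, was 442, 445, 447, 439 and 459 TPM in the intact samples and 287, 249, 404, 386 and 403 TPM in KO 1 to KO 5. The intact values of Rpl37a lay within 439 to 459 TPM, so that even KO 3 at 404 TPM was outside their range. Its log2 difference was -0.39 (limma adjusted p = 0.580). Rps21 was 147 to 166 TPM in intact samples and 90.7 to 137 TPM in KO clones, with a log2 difference of -0.38 (limma adjusted p = 0.568). Rps25, a small-subunit protein used by some viral and cellular messages that start translation without a cap, was 631, 623, 604, 618 and 649.9 TPM in intact samples and 382, 571, 547, 524 and 599 TPM in KO 1 to KO 5. KO 1 was the farthest below the intact range for Rps25, and the log2 difference of the gene was -0.27 (limma adjusted p = 0.662), and -0.16 without KO 1. Without both KO 1 and KO 2 the log2 difference was -0.24 for Rps29, -0.20 for Rps28 and -0.17 for Rpl37a, Rps21 and Rps25.

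Rps27 overlapped between the groups. It was 1284, 1329, 1232, 1279.8 and 1309 TPM in the intact samples and 839, 633, 1227, 1159.9 and 1345 TPM in KO 1 to KO 5. KO 2 had less than any other sample, and KO 5 more than any intact sample. The log2 difference was -0.36 (standard error 0.18, limma adjusted p = 0.755). Leaving out KO 2 gave -0.19, and leaving out KO 1 and KO 2 gave -0.05. Rpl38, with a log2 difference of -0.36 (limma adjusted p = 0.686), was 409 to 465 TPM in intact samples and 262, 256, 384, 399 and 451 TPM in KO 1 to KO 5.

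At the other end, the members with the highest log2 differences were Rplp0 at 0.11 (limma adjusted p = 0.828), Rpsa at 0.10 (0.840), Rpl5 at 0.07 (0.866), Rpl14 at 0.06 (0.894) and Rps3 at 0.06 (0.820). None passed the threshold, and all overlapped with the intact samples. Rplp0, the P-stalk protein that anchors the P1 and P2 dimers, was 656, 621, 607, 730.2 and 748 TPM in the intact samples and 736, 903, 669.8, 614 and 714 TPM in KO 1 to KO 5. Rpsa, a small-subunit protein also known as the laminin receptor precursor, was 115, 126, 114, 115 and 122 TPM in the intact samples and 109, 168, 127, 110.5 and 128 TPM in KO 1 to KO 5. In both genes KO 2 had the highest value of the 10 samples. After each sample was centred on the other genes of the same chromosome, Rpl14, Rpl5 and Rpsa had log2 differences of -0.04, -0.0080 and -0.0037. Without KO 2 the log2 differences were 0.03 for Rplp0, 0.0015 for Rpsa, 0.0077 for Rpl5 and -0.0055 for Rpl14, whereas Rps3 stayed at 0.07. Without KO 1 and KO 2, Rplp0 was at -0.01.

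**Figure D4:**
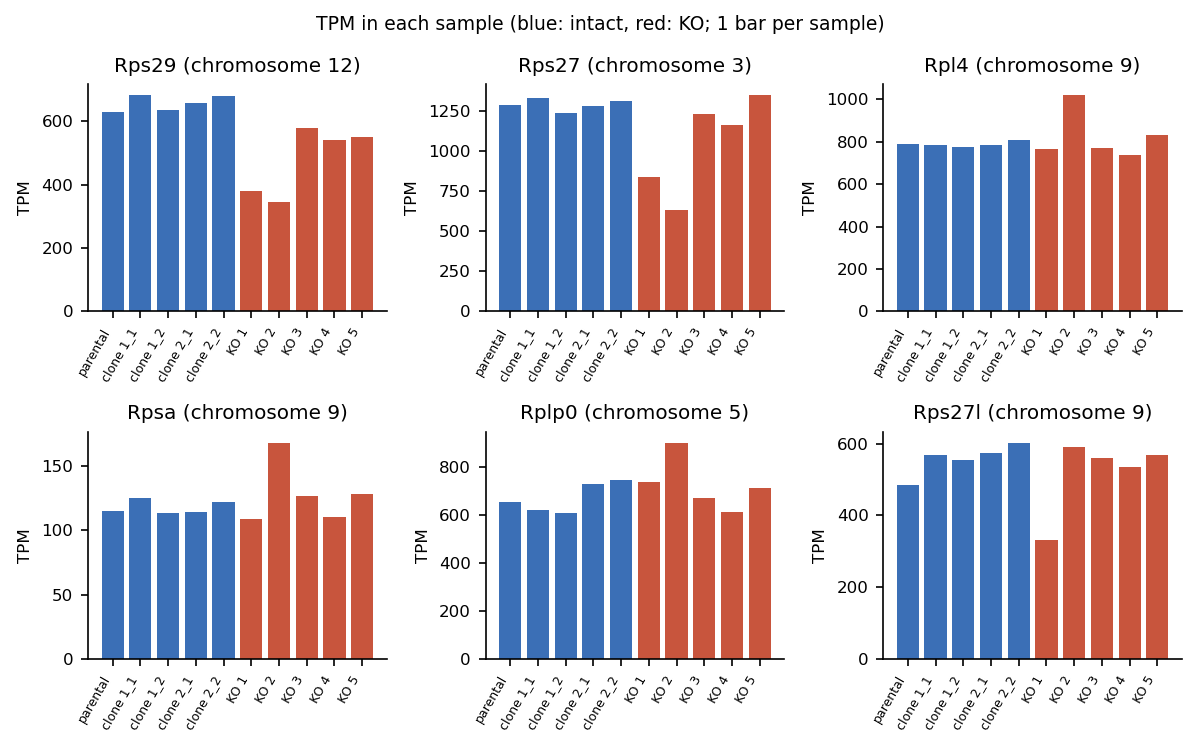
TPM of Rps29, Rps27, Rpl4, Rpsa, Rplp0 and Rps27l in each of the 10 samples, with 1 bar per sample (blue, intact; red, Camk2d KO) and axes that start at 0. Rps29 and Rps27 are lowest in KO 2, at 345 and 633 TPM, whereas Rpl4, Rpsa and Rplp0 are highest there, at 1018, 168 and 903 TPM. Rps27l is lowest in KO 1, at 331 TPM.

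The 8 cell lines (3 intact and 5 KO) were then compared with a moderated F test in limma, in which the spread came from the 2 samples of each intact clone (2 residual degrees of freedom) and the lines with a single sample are assumed to vary like these. Of 77 members, 2 passed the threshold of 0.05, where 3.60% of all genes did. Rpl37a was 1 of them (limma adjusted p = 0.0408). KO 1 and KO 2 were its lowest lines. At an unadjusted p under 0.05 there were 45 members, where 28.7% of all genes had such a p, and 24 (22.9% of all genes) without either 1 of the samples of intact clone 1. The number called moved with the settings, from 0 in limma without a trend (2.26% of all genes) to 29 at an adjusted p under 0.1 (13.4%). It was 0 without KO 2 (1.92% of all genes), 1 without KO 1 (2.73%) and 5 without the parental line (4.45%). When any 1 sample of an intact clone was left out it was also 0, but then no gene of the 20000 was called (0.00%). That 0 says nothing particular about the members.

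The range over the 8 lines, in log2(TPM + 1) with intact clones averaged, shows which members varied most. It was 1.09 for Rps27, 0.95 for Rps29, 0.86 for Rps28, 0.84 for Rpl37a and 0.84 for Rpl38. Over the 3 intact lines alone the same members had ranges of 0.02, 0.09, 0.07, 0.02 and 0.17. KO 2 was the lowest line for all 5. The smallest ranges were 0.21 for Rps3, which lines the channel where messenger RNA enters, 0.21 for Rpl27a, 0.22 for Rpl3, which lies near the peptidyl transferase centre, 0.23 for Rpl13a and 0.23 for Rps6. Across the 77 members, the lowest line was KO 1 for 39, KO 2 for 31, KO 4 for 5, and the parental line and intact clone 1 for 1 each. The highest line was KO 5 for 33, intact clone 2 for 19, KO 2 for 9, KO 3 for 9, intact clone 1 for 5 and the parental line for 2.

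KO 4 had a member that stood apart from the rest of its set. Rpl24, a large-subunit protein that bridges to the small subunit, was 229, 244, 245, 242 and 256 TPM in the intact samples and 209.6, 199, 239.7, 172 and 245 TPM in KO 1 to KO 5. KO 4 was lower than KO 1 and KO 2, unlike in most members, and its difference from the intact mean was -0.49 beside a median of -0.09. Rpl24 was singled out after its values were seen, and 48.2% of its windows are its own.

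The 9 members for which KO 2 was the highest line, among them Rpl4, Rpsa and Rplp0, prompted a comparison by chromosome, made after these values were seen. For each sample and chromosome, the median log2 difference from the intact mean was taken over the genes that are no members and have a mean of at least 10 TPM. In KO 2 these medians were 0.47 on chromosome 9 (510 genes), 0.37 on chromosome 5 (611 genes) and -0.34 on chromosome 3 (459 genes), and elsewhere at most 0.140 in size. In KO 1 they were -0.33 on chromosome 8 (531 genes) and 0.24 on chromosome 19 (349 genes, no members), and elsewhere at most 0.0766 in size. The largest size was 0.0820 in KO 3, KO 4 and KO 5, and 0.0646 in intact samples on chromosomes other than 5. Chromosome copy number was not measured, and its part in these values was not tested.

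On chromosomes 3, 5 and 9 the median of the members in KO 2 lay in the direction of the other genes there, though not every member of chromosome 9 did. On the remaining chromosomes with members their medians were below 0, as on chromosome 7, where the medians were -0.16 for members and 0.14 for other genes. On chromosomes 5 and 9 lie 12 members, with a median of 0.29 in KO 2, of which 7 were above, 2 below and 3 inside the intact range. Of the other genes, 82.8% on chromosome 5 and 90.8% on chromosome 9 were above that range, and 2.62% and 2.55% below, so the members were above it less often. The 65 members elsewhere had a median of -0.29, with 0 above, 60 below and 5 inside. Every member above the intact range in KO 2 was thus on chromosome 5 or 9. On chromosome 9, Rpsa was at 0.51, Rpl29 at 0.43, Rpl4, a protein lining the peptide tunnel, at 0.37 and Rpl14 at 0.33. Rps27l on the same chromosome was at 0.09, inside the intact range. Rplp1 at -0.11 and Rps25 at -0.13, also on chromosome 9, were below every intact sample, opposite to the median of the other genes there. On chromosome 5, the values were 0.43 for Rplp0, 0.33 for Rpl5, 0.25 for Rpl6, 0.15 for Rpl9 and 0.08 for Rpl21. The 2 members on chromosome 3 had the opposite position, with Rps27 at -1.02 and Rpl34 at -0.72.

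Rpl4 (ENSMUSG00000032399) shows the pattern in TPM. It was 788, 785, 775, 786 and 807 TPM in the intact samples and 765, 1018, 769, 736 and 833 TPM in KO 1 to KO 5. Among the KO clones KO 2 alone was far above the intact range, with KO 5 slightly above it and the other 3 slightly below. The log2 difference of the group means was 0.05 (limma adjusted p = 0.903), and -0.02 without KO 2.

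In KO 1, Rpl13 on chromosome 8 was at -0.45, and the 75 members on other chromosomes had a median of -0.32. Rps3a1, a small-subunit gene on chromosome 3 outside the symbol rule, was 359.8 TPM in KO 2 and 530.1 to 602 TPM in intact samples.

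**Figure D5:**
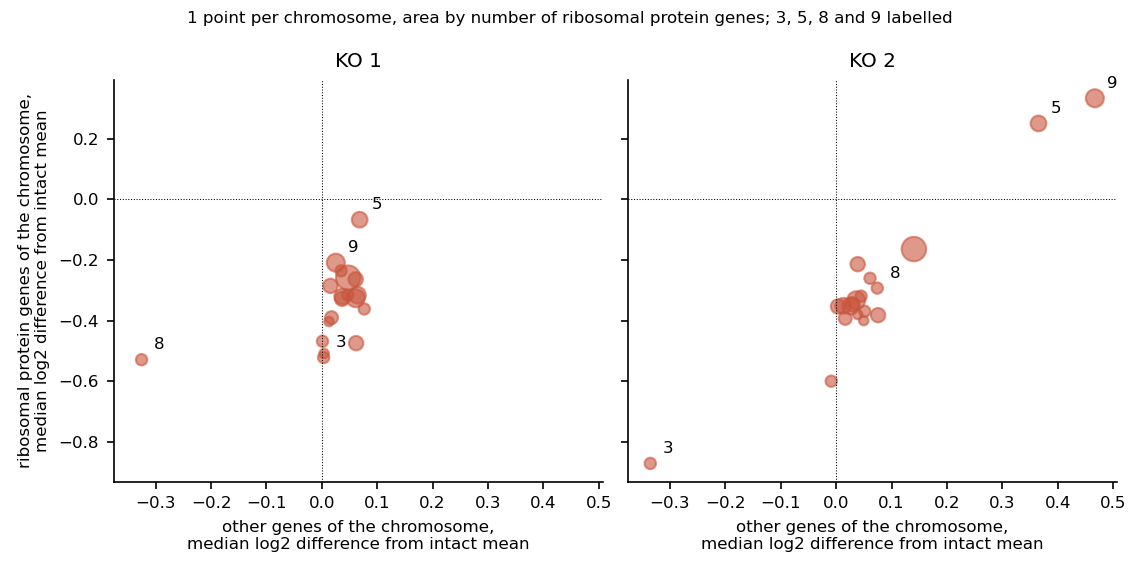
Median log2 difference from the intact mean of the members on each chromosome (vertical axis) against that of the other genes on it with at least 10 TPM (horizontal axis), for KO 1 (left) and KO 2 (right). Each point is a chromosome, with an area that grows with its number of members. In KO 2 chromosomes 5 and 9 lie at the upper right and chromosome 3 at the lower left, whereas in KO 1 chromosome 8 stands to the left at -0.33 for other genes.

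When each sample was centred on the median of the other genes of the same chromosome, the members of KO 2 came closer together, from an SD over members of 0.300 to 0.199, and their median was -0.34 in place of -0.26. Of the 77 members, 75 were then below 0 in KO 2, beside 65 as deposited. In KO 1 the SD was 0.219 as deposited and 0.215 after centring, and the median -0.37. The centred medians were 0.00 in KO 3, -0.13 in KO 4 and 0.06 in KO 5. The lower level of the members in KO 1 and KO 2 was therefore at least as large after centring as before. In the KO comparison after centring, 0 members passed the threshold of limma, 17 had an unadjusted p under 0.05, where 7.23% of all genes did, and 75 pointed downward, while 9243 of the 20000 genes tested pointed upward.

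Intact clones 1 and 2 were compared with each other to see how far cell lines that kept Camk2d differ. With limma, 0 of 77 members passed an adjusted p of 0.05, where 0.0250% of all genes did. With 2 samples of each clone, the comparison had little power for differences of the size seen in the members, so the 0 does not show that the clones are alike. At an unadjusted limma p under 0.05 there were 5, where 17.1% of all genes had such a p. The count was 2 without intact clone 1 sample 2 (14.3% of all genes) and 9 without intact clone 2 sample 1 (14.6%). The 5 members were Rplp0, Rpl21, Rpl17, Rpl9 and Rpl6, and all 5 were higher in intact clone 2. Rplp0 was 621 and 607 TPM in intact clone 1 and 730.2 and 748 TPM in intact clone 2, without overlap, with a log2 difference of 0.27 (limma adjusted p = 0.101). Rpl9, a protein of the large subunit, was 340.1 and 329 TPM in intact clone 1 and 404 and 435 TPM in intact clone 2, with a log2 difference of 0.32 (limma adjusted p = 0.144).

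Of these 5 members, 4 lie on chromosome 5, and Rpl17 does not. All 5 members of chromosome 5 were higher in intact clone 2, with a median log2 difference of 0.24, and the other 72 members had a median of 0.03. The other genes of chromosome 5 differed by 0.19 between the intact clones, with medians of -0.09 and -0.12 in the samples of clone 1 and 0.10 and 0.08 in those of clone 2. The parental line had a median of 0.03 for these genes. The members of chromosome 5 thus differed between the intact clones as the other genes of the chromosome did.

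Members with short transcripts were lower than those with long ones in KO 1 and KO 2. The 77 members were divided at the median length of 878 nucleotides of the principal transcript, which left 39 short and 38 long members. In KO 1 the short members had a median of -0.38 and the long ones of -0.18. In KO 2 the medians were -0.33 and -0.23. In KO 3 to KO 5 the medians of short and long members differed by no more than those of KO 3, which were -0.01 and 0.05. Over the members, Spearman's rho of length with the log2 difference was 0.506 in KO 1 and 0.444 in KO 2, which describes genes of 1 library each. Genes that are no members and have a mean of at least 50 TPM were divided at the same length. In KO 1 the 264 short ones had a median of -0.14 and the 4166 long ones of 0.03, in KO 2 -0.11 and 0.05, and in KO 4 -0.10 and 0.03. Short transcripts in general were thus lower in these 3 clones. The short members were lower still in KO 1 and KO 2, whereas in KO 4 both the short and the long members had medians, of -0.10 and -0.09, close to that of the other short genes. The part of library preparation in this was not tested.

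Several members have paralogs whose use is restricted to a tissue. Rpl10l and Rpl39l, which serve germ cells of the testis, and Rps4l were listed at 0 in all 10 samples, beside 303 ± 13.2 TPM for Rpl10, 67.1 ± 8.79 TPM for Rpl39 and 229 ± 5.97 TPM for Rps4x in intact samples (SD, n = 5). Rpl3l, the paralog of striated muscle, was at most 0.21 TPM in any sample, beside 294 ± 12.6 TPM for Rpl3 (SD, n = 5). Rpl32l was 0.00 to 0.57 TPM and Rpl6l 0.37 to 0.86 TPM. The tissue-restricted paralogs were thus listed under 1 TPM in every sample, intact and KO. The value of Rpl6l is uncertain, because 23.6% of its windows are its own.

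Rps27l, the paralog of Rps27, was expressed in these cells and is a known target of Trp53. It was 484, 568, 553, 573 and 603 TPM in the intact samples and 331, 590.2, 559, 535 and 568 TPM in KO 1 to KO 5. KO 1 alone was below the intact range. The level of Rps27l in intact cells was 556 ± 44.2 TPM beside 1287 ± 36.5 TPM for Rps27 (SD, n = 5). In KO 2 the paralogs nearly reached the same level, with 633 TPM for Rps27 and 590.2 TPM for Rps27l. Rps27 lies on chromosome 3 and Rps27l on chromosome 9, which were at -0.34 and 0.47 in that clone. The log2 difference of Rps27l between KO and intact samples was -0.13 (standard error 0.15, limma adjusted p = 0.856). Without KO 1 it was 0.02.

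Other ribosomal protein genes have symbols outside the rule, and 9 of them were followed. Their log2 differences between KO and intact samples were all below 0, with a median of -0.15, and 0 of 9 passed the threshold of limma. By clone, their median difference from the intact mean was -0.30 in KO 1, -0.35 in KO 2, 0.00 in KO 3, -0.12 in KO 4 and 0.05 in KO 5. The group difference was thus not shared by all KO clones. Rpl22l1, a paralog of Rpl22 on chromosome 3, was 165 ± 20.9 TPM in intact and 146 ± 22.0 TPM in KO samples (SD, n = 5), beside 127 ± 8.33 and 109.5 ± 14.8 TPM for Rpl22. Rpl36al, an expressed copy of Rpl36a, was 424 ± 27.2 and 383 ± 44.3 TPM (SD, n = 5), above Rpl36a itself at 120.5 ± 5.52 and 108.5 ± 14.3 TPM. Rpl7l1 stood at 146 ± 6.99 and 144 ± 10.7 TPM (SD, n = 5), beside 469 ± 15.4 and 457 ± 35.5 TPM for Rpl7. The retrogene Rpl37rt was 76.7 ± 5.55 and 63.5 ± 14.8 TPM and Rps27rt 8.08 ± 2.12 and 4.84 ± 2.03 TPM (SD, n = 5). Retrogenes share most of their sequence with the parent gene, so their values may include its reads.

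The machinery that makes and uses ribosomes was examined as lists of genes, chosen with earlier results of these data known. In the KO comparison, 0 genes of any of these lists passed the threshold of limma. Of 9 translation elongation factors tested, 5 pointed upward and 4 downward, with a median of 0.00. Eef1a1, which delivers aminoacyl-tRNA to the ribosome, was 1589 ± 53.3 TPM in intact and 1696 ± 113.1 TPM in KO samples (SD, n = 5). Of 30 initiation factors and poly(A) binding genes 22 pointed upward, with a median of 0.03, and of 40 ribosome biogenesis genes 28, with a median of 0.04. Of all 20000 genes tested 11451 pointed upward, with a median of 0.02, so an upward majority is not particular to these lists. Pabpc1, the cytoplasmic poly(A) binding protein, had a log2 difference of 0.17 (limma adjusted p = 0.594) and Nop10, a component of pseudouridylation particles, -0.19 (limma adjusted p = 0.590). In KO 1 and KO 2 the elongation factors had medians of 0.01 and -0.06, the initiation factors of -0.01 and -0.01, and the ribosome biogenesis genes of -0.05 and 0.13. All were nearer to 0 than those of the members, and the biogenesis genes were on the higher side in KO 2.

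Genes that host small nucleolar RNAs in their introns carry the same pyrimidine motif in several cases. Of the 10 tested, 7 pointed downward, with a median of -0.09, and Snhg3 had a log2 difference of -0.31 (limma adjusted p = 0.580). The medians of this list were -0.10 in KO 1 and -0.33 in KO 2. Of 13 regulators of ribosomal protein synthesis in the mTORC1 and Myc pathways, 11 pointed upward, with a median of 0.07. Rptor, the mTORC1 scaffold, was 12.9 ± 1.06 TPM in intact and 15.4 ± 0.501 TPM in KO samples (SD, n = 5), without overlap, with a log2 difference of 0.25 (limma adjusted p = 0.524). Tsc2, an inhibitor of mTORC1, was 53.0 ± 4.01 and 60.04 ± 2.55 TPM (SD, n = 5), also without overlap (log2 difference 0.18, limma adjusted p = 0.568). Both an activator and an inhibitor of the pathway were thus on the higher side, and neither passed the threshold.

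Free ribosomal proteins are known to bind Mdm2, the inhibitor of Trp53, and 8 targets of Trp53 were read beside the members. Their median log2 difference from the intact mean was -0.41 in KO 1, -0.54 in KO 2, 0.19 in KO 3, 0.34 in KO 4 and 0.02 in KO 5. KO 1 and KO 2, with the lowest members, had the lowest medians, whereas KO 4, the next lowest in its members, had the highest. In KO 1 and in KO 2, 7 of the 8 targets were below the intact range and 1 was above it, Sesn2 in KO 1 and Phlda3 in KO 2, where 18.7% and 18.9% of all genes tested were below and 26.0% and 33.4% above. In KO 4 all 8 were above the intact range, where 24.8% of all genes were. Cdkn1a, the cell cycle inhibitor of this list, was 316 to 419.6 TPM in intact samples and 267, 278, 389, 459 and 379 TPM in KO 1 to KO 5. Mdm2 was 91.3 to 109 TPM in intact samples and 88.0, 75.9, 108, 122 and 97.7 TPM in KO 1 to KO 5. No gene of the list passed the threshold in the KO comparison.

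The genes most like the members over the 8 lines were sought among the 9175 other genes with a mean of at least 10 TPM. Pearson's r with the mean log2 level of the members was 0.975 for Snrpd2, 0.972 for Immp1l, 0.969 for Slirp, 0.961 for Hcfc1r1 and 0.957 for Gm10443. Snrpd2 encodes a core protein of the spliceosome and was 54.4 to 59.6 TPM in intact samples and 43.5, 45.1, 61.0, 50.9 and 58.2 TPM in KO 1 to KO 5. Slirp, an RNA-binding protein of mitochondria, was 352 to 415 TPM in intact samples and 277, 307, 366, 342 and 389 TPM in KO 1 to KO 5. These are the highest of many correlations over 8 lines that share libraries, and they are a description.

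The cell type of the samples was checked with markers. Summed principal cell markers, mostly Aqp2, were 4449 to 6217 TPM in intact and 2014 to 4568 TPM in KO samples. Scnn1b and Elf5 of this list were near 0, with means of 0.20 and 0.025 TPM over the 10 samples. Aqp2, the vasopressin-regulated water channel, was 3773 to 5502 TPM in intact samples and 1281, 1618, 3789, 2879.7 and 2856 TPM in KO 1 to KO 5, so it was lowest in the clones with the lowest members. The list as a whole had medians, over the 9 genes tested, of -0.29, -0.02, 0.15, -0.13 and -0.07 in KO 1 to KO 5, so that KO 2 was not among the lowest. Hsd11b2, the enzyme that inactivates corticosteroids in these cells, did not follow this order, with 17.8 to 24.5 TPM in intact samples, 11.5 TPM in KO 1 and 115 TPM in KO 2. The part of cell state in the values of the members was not tested. Intercalated cell markers summed to 23.6 to 30.8 TPM in intact and 21.8 to 49.3 TPM in KO samples. Nearly all of this was Atp6v1b1, with a mean of 30.1 TPM over the 10 samples. Slc4a1, Slc26a4, Foxi1 and Atp6v0d2 had means of at most 0.035 TPM. Proximal tubule markers summed to 7.54 to 13.0 TPM in intact and 6.53 to 15.04 TPM in KO samples. Nearly all of that was Lrp2 (mean 10.9 TPM), beside Slc34a1 at 0, Slc5a2 at 0.024 and Cubn at 0.017 TPM. Umod and Slc12a1 of the thick ascending limb were listed at 0 in every sample, and endothelial markers reached at most 0.06 TPM in sum, fibroblast markers 0.61 TPM and leukocyte markers 9.41 TPM. The leukocyte sum was mostly Cd68, with a mean of 4.98 TPM. TPM carry no record of depth, so the sequencing depth of each sample is unknown.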

How the data were processed

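Total RNA of 10 samples was made into amplified full-length cDNA and sequenced as short pairs. Per the labels, the authors used STAR and RSEM, and they deposited TPM per Ensembl gene, which have the same total in every sample. Expected counts, on which the authors ran edgeR, were not used here. All columns of per-sample values were used. Members, lists and tests were chosen with earlier results of these data known. The values of 1 member are not reported here.

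Groups came from the labels and guide exons from the study's supplement. The 20000 most abundant genes by mean TPM entered, as log2(TPM + 1), a comparison with limma 3.58.1 (lmFit, eBayes with an intensity trend) in R 4.3.3, two-sided, with Benjamini-Hochberg adjustment over all of them and a threshold of 0.05. Log2 differences on this scale understate changes of low genes. The procedure was tested on simulated data whose noise had the spread between the samples of an intact clone, without differences between lines. There, 92.5% of log2 changes of 0.5 were called in the KO comparison and 0% between the intact clones. Because the real lines differ, the 92.5% does not give the power of the KO comparison in these data. The summed TPM was compared by exact permutation in R. Python 3.11.15, pandas 2.3.3, numpy 2.4.6, scipy 1.17.1 and matplotlib 3.10.9 were also used. Chromosomes, transcript lengths and own windows came from GENCODE M21 on GRCm38, since the table holds no coordinates, and promoters from RefSeq on GRCm38.p6.

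Named genes were the 5 members at each end of the intact level, of the KO difference and of the range over lines, every member called, the paralogs, Camk2d, up to 4 genes of each other list with the largest change and the 5 genes of most like pattern. Rpl4, Rpl34, Rpl9 and the other members named for their chromosome, Rpl24, Rps25 and the 10 members at an unadjusted p under 0.05 were named after their values were seen, as were Rps3a1, Eef1a1, Cdkn1a, Mdm2, Sesn2, Phlda3, Aqp2 and Hsd11b2.

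Alternatives were a pseudocount of 0.1, filters at above 0 or at 1 TPM, median-ratio rescaling, rescaling without the members, quantile normalization, robust moderation, no intensity trend, averaging of the samples of a line, a random effect for the line (statmod 1.5.0), an adjusted p under 0.1 and leaving out each sample. Centring by chromosome and leaving out both KO 1 and KO 2 were added after seeing the data.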

Additional observations from a re-analysis of the deposited data

Results flagged for a closer look

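In 5 of the 156 sets of 5 samples examined (each member and the summed TPM, in each group), 1 sample lay far from the other 4 by Dixon's criterion, which chance alone meets in about 1 of 20 sets. Rps27l in KO 1 was the lowest KO value at 330.51 TPM, beside 535 to 590.2 TPM in the other KO clones. Rpl3 in KO 2 was the lowest KO value at 263.19 TPM, beside 296 to 307 TPM. Among intact samples, the parental line was lowest for Rpl15 at 152.56 TPM (179 to 189.97 TPM in the others) and for Rpl39 at 51.99 TPM (68.5 to 74.0 TPM). Intact clone 2 sample 2 was highest for Rps21 at 165.82 TPM, beside 147 to 151 TPM in the others.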

How the results depend on the processing

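No member passed the threshold between KO and intact samples, or between the intact clones, under any alternative run. The number of members called over the 8 cell lines was 2 (3.60% of all genes). It became 8 with all genes above 0 (13.2% of those tested), 21 with a mean TPM of at least 1 (7.65%) and 0 in limma without a trend (2.26%). It was 20 with robust moderation (6.00%) and 29 at an adjusted p under 0.1 (13.4%). With 1 sample left out it was 0 to 5 (0.00% to 4.45%), and no gene of any kind was called without a sample of an intact clone. The cause was not tested. The difference in summed TPM lay between -0.395 and -0.173 percentage points with 1 sample left out. Members outside the intact range were 21 to 35 in KO 3, 36 to 50 in KO 4 and 33 to 50 in KO 5 with 1 intact sample left out. The shares over all genes were not computed for these narrower ranges. The median log2(KO/intact) of the members was -0.16 to -0.0072 over the alternatives and -0.17 to -0.07 with 1 sample left out. Across settings, 36 genes were followed, namely Camk2d, 25 members, 5 genes of other lists and 5 paralogs outside the rule. Of these 36, 25 kept their sign outside the fits with 1 sample left out, and none other than Camk2d was called in any of 23 settings (smallest adjusted p 0.215). Without both KO 1 and KO 2 the sign turned for Rpl11 (0.0641), Rpl13 (0.0442), Rpl27a (0.0229), Rpl7l1 (0.0415), Rps6 (0.0564), Rpl4 (-0.0183) and Rplp0 (-0.0116). Centred by chromosome it turned for Rpl4 (-0.0524), Rpl14 (-0.0445), Rpl3 (-0.0317), Rpl5 (-0.0080) and Rpsa (-0.0037). Rpl27a was 0.0036 when the samples of a line were averaged and 0.00068 under a random effect for the line. Rpl3 was -0.0273 rescaled by median ratios and -0.0029 rescaled without the members. With 1 sample left out, the sign turned for Rpl4 (-0.0244 to 0.0926), Rpl14 (-0.0055 to 0.118), Rpl27a (-0.0402 to 0.0165), Rpl3 (-0.0171 to 0.0416), Rpl7l1 (-0.0508 to 0.0234), Rps27l (-0.187 to 0.0215) and Rps6 (-0.0302 to 0.0280). No paired analysis was possible because the numbers of the intact clones and of the KO clones name different clones. Depth is unknown, so counting error could not be separated from the spread between samples.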
